A study of Mus musculus with 10 samples.

Results

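The receptor tyrosine kinases through which neurons read neurotrophins, neuregulins, fibroblast growth factors (FGFs) and hepatocyte growth factor were followed in layer 5 intratelencephalic projection neurons (IT-PNs). The 9 genes were taken by name, as *Ntrk2*, *Ntrk3*, *Erbb2*, *Erbb3*, *Erbb4*, *Fgfr1*, *Fgfr2*, *Fgfr3* and *Met*, and all 9 were among the 24453 genes of the count table. Of these 9 genes, 8 had at least 1 read and 7 passed the filter on low counts, which asked for at least 10 CPM (counts per gene, scaled to an equal total of gene reads in every library) in at least 2 libraries and kept 7409 genes in all. *Erbb2* and *Met* did not pass it.

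RNA was sequenced from IT-PNs of right primary motor cortex (M1) sorted from male, hemizygous *Fezf2-Gfp* mice of the (Zfp312-EGFP)CO61GsatMmnc line on a Swiss Webster background, aged postnatal day 28 to 32. Every animal had received the retrograde tracer cholera toxin subunit B (CTB) with a far-red fluorophore in the left M1 at postnatal day 23 to 25, and there was no untreated group. *Fezf2+ve* cells carried GFP and CTB, *Fezf2-ve* cells carried CTB only, and each of 5 animals gave 1 library of each type. GFP is made from a reporter transgene, so the gates sort by reporter and tracer. By RT-PCR, the study detected endogenous *Fezf2* in the *Fezf2+ve* fractions of 5 animals and in none of their *Fezf2-ve* fractions. Gene reads per library numbered between 107643 and 203379 in *Fezf2+ve* and between 89138 and 217738 in *Fezf2-ve* cells. A count of 3 reads, the floor used below, corresponded to 13.8 to 33.7 CPM, and floors and intervals cover counting error only, since the reads were amplified by PCR, carry no molecular identifiers and so do not stand for separate molecules.

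Receptors of this kind cross the membrane, pair with another receptor upon ligand binding, and as a rule phosphorylate each other and adaptor proteins that feed the RAS-MAPK and PI3K-AKT cascades. TrkB (*Ntrk2*) and TrkC (*Ntrk3*) bind the neurotrophins BDNF and NT-3, ErbB3 and ErbB4 bind neuregulins, ErbB2 binds no ligand and acts as a partner, and the FGF receptors bind FGFs together with heparan sulfate. In cortex ErbB4 is best known from interneurons, FGFR3 from astrocytes, ErbB3 from the oligodendrocyte lineage and a truncated TrkB from astrocytes, whereas full-length TrkB and TrkC are widespread in neurons.

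The labelled cell type was checked against marker genes. *Slc17a7*, the vesicular glutamate transporter of cortical projection neurons, had 11 reads over the 10 libraries, *Fezf2* had 1 read, *Neurod6* had 2 and *Tbr1* and *Crym* had 0. These 5 transcripts were at or near the floor in both types, while other genes of the same lists had reads. *Camk2a*, the most abundant of 7 excitatory neuron genes, had 588 reads, of which *Fezf2-ve* library 3 held 529, and *Foxp2*, the most abundant of 7 layer 5 genes, had 1280. Of these, *Fezf2-ve* libraries 1 and 3 held 560 and 665. DESeq2 with the block called *Foxp2* alone of this list (log2 fold change -3.70, adjusted p = 0.0668), beside 98 of all tested genes (1.32%). It was not called in edgeR with the block (-3.56, adjusted p = 0.998) or without it. *Rorb*, also a layer 5 gene here, had 728 reads, of which *Fezf2-ve* library 3 held 646. The summed level of the layer 5 genes was 3436 and 7788 CPM in *Fezf2-ve* libraries 1 and 3 and at most 330 CPM in any other library. In libraries 1 and 3 this sum came nearly wholly from *Foxp2* and *Rorb*. *Etv1* had 3 and 1 reads there, *Deptor* had 1 and 2, and *Fezf2*, *Bcl11b* and *Crym* had 0. The sum therefore does not speak for the list as a whole. Reads on genes of other cell types were present in both types. The 5 oligodendrocyte precursor genes had 2286 reads with *Vcan* most abundant, the 7 oligodendrocyte genes 1967, and the 9 astrocyte genes 2342 with *Slc1a2*, while the astrocyte gene *Gfap* had 0. Of 9 interneuron genes, 5 had 0 reads (*Slc32a1*, *Pvalb*, *Vip*, *Lhx6* and *Dlx1*), and *Adarb2* held 1606 of the list's 1617 reads. The endothelial genes had 57 reads, with *Flt1* most abundant, and the pericyte genes 7, with *Pdgfrb* most abundant and *Kcnj8* and *Vtn* at 0.

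Of the 9 marker lists, the pericyte list had no tested gene and so no median, and the interneuron median was that of *Adarb2* alone. Among the lists with a median, the 8 microglial genes had the largest median difference between the types (log2 fold change -5.42). Their summed level was 169, 121, 33.9, 46.2 and 83.6 CPM in *Fezf2+ve* libraries 1 to 5 and 5276, 2782, 4315, 1391 and 3812 CPM in *Fezf2-ve* libraries 1 to 5. The groups did not overlap, and the sum was higher in *Fezf2-ve* cells in 5 of 5 animals (two-sided exact permutation p = 0.0625, the smallest possible with 5 pairs). *Ctss* was the most abundant microglial gene and no gene of this list was at 0. At an adjusted p of at most 0.1, edgeR with the block called 0 of the 8, beside 0 of 7409 tested genes (0%). DESeq2 with the block called 5, beside 98 of all tested genes (1.32%), and edgeR without the block called 5, beside 279 (3.77%). *Trem2* had 0 reads in *Fezf2+ve* libraries, and *Tyrobp* and *Aif1* had 1 read each there. These genes reached 10 CPM in *Fezf2-ve* libraries only, so the list median and the counts called carry that selection. The summed level does not depend on the filter. The sum of the excitatory genes ran from 0 to 279 CPM in *Fezf2+ve* and from 4.59 to 3266 CPM in *Fezf2-ve* libraries, and the groups overlapped. The part of other cell types in the values of the receptors was not tested. In these sorted pools, fewer cells of a type and less RNA per cell cannot be told apart. The study also reported microglia-associated genes as enriched in *Fezf2-ve* IT-PNs, and attributed them to the neurons. Which cells these reads came from was not tested here.

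**Figure D1:**
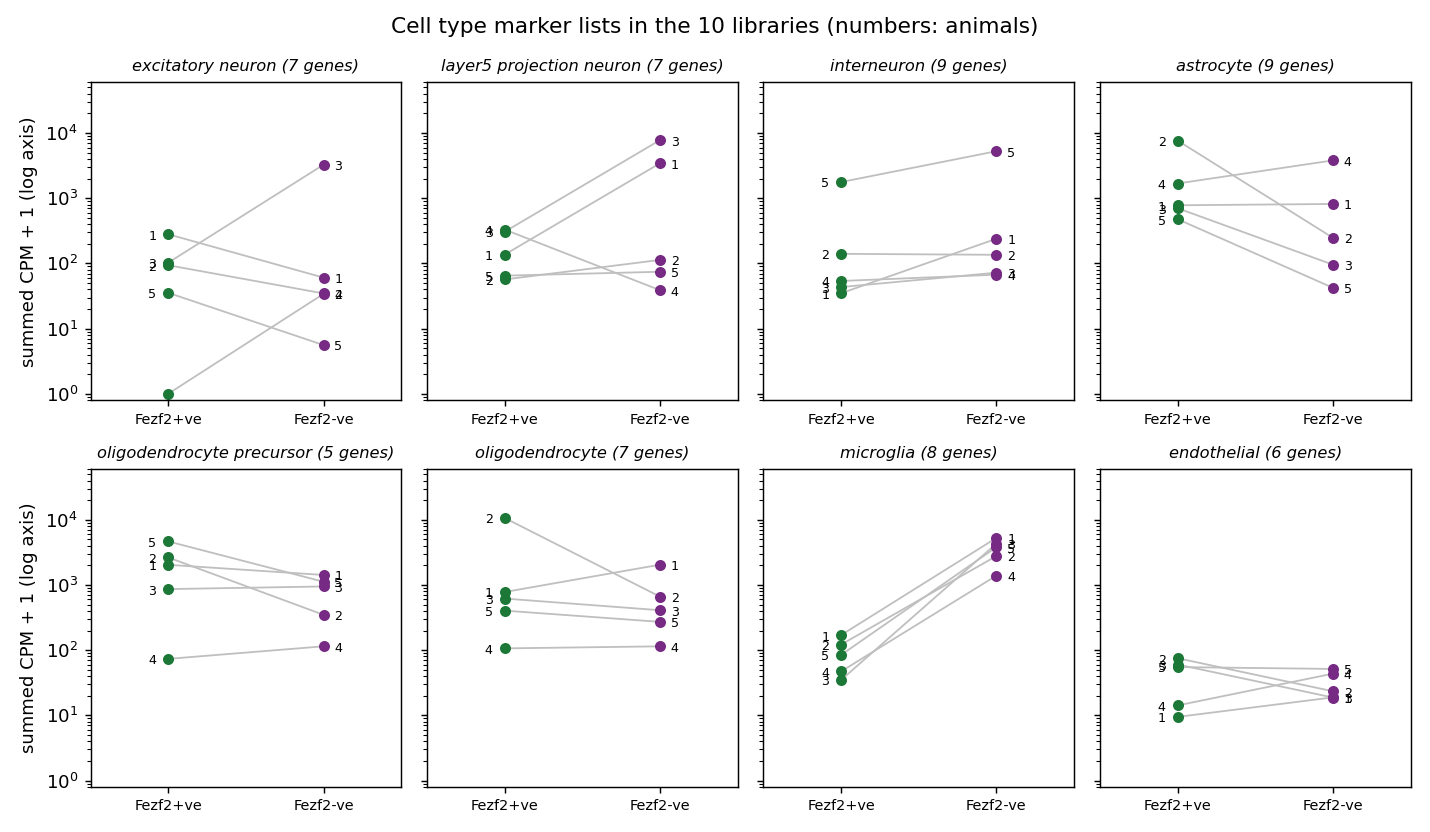
Summed level of 8 marker lists in CPM + 1 on a log axis, 1 point per library, with grey lines joining the libraries of an animal. The microglial sums lie between 33.9 and 169 CPM in *Fezf2+ve* and between 1391 and 5276 CPM in *Fezf2-ve* libraries, and the other lists overlap between the types.

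Of the neurotrophin receptors, *Ntrk2* was read in every library. Its reads were 40, 5, 4, 1 and 73 in *Fezf2+ve* libraries 1 to 5 and 13, 3, 3, 11 and 4 in *Fezf2-ve* libraries 1 to 5. *Fezf2+ve* libraries 1 and 5 stood above all *Fezf2-ve* libraries, *Fezf2+ve* library 4 stood below them, and the groups overlapped. The mean was 157 ± 176 CPM (SD, n = 5) in *Fezf2+ve* and 39.9 ± 25.2 CPM (SD, n = 5) in *Fezf2-ve* cells, while the medians were 46.4 and 33.7 CPM. The *Fezf2+ve* level was higher in 4 of 5 animals, by a mean of 0.97 ± 2.57 on the log2(CPM + 1) scale (SD of the paired differences; two-sided exact permutation p = 0.438). In edgeR with the animal as a block the log2 fold change of *Fezf2+ve* over *Fezf2-ve* cells was 1.19 with a standard error of 1.30 (adjusted p = 0.998). It was 0.66 without animal 1, 0.30 without animal 5, 1.95 without animal 4 and 1.97 without the block. Counts per gene do not separate the full-length receptor from the truncated form, and GENCODE lists 7 protein-coding transcripts of *Ntrk2*. The gene spans chromosome 13, 58806472 to 59133970, on the plus strand (RefSeq, GRCm38, which is mm10).

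*Ntrk3*, the NT-3 receptor, had 622 reads in all, and nearly all of them came from 1 library of each type. Its reads were 2, 247, 4, 3 and 3 in *Fezf2+ve* libraries 1 to 5 and 14, 2, 346, 1 and 0 in *Fezf2-ve* libraries 1 to 5. The high libraries were from different animals, animal 2 for *Fezf2+ve* and animal 3 for *Fezf2-ve* cells, and the remaining libraries had between 0 and 14 reads. The mean was 476 ± 1017 CPM (SD, n = 5) in *Fezf2+ve* and 432 ± 905 CPM (SD, n = 5) in *Fezf2-ve* cells, and without the highest library of each type it was 21.3 and 27.6 CPM. The log2 fold change was 0.88 with a standard error of 1.98 (edgeR, adjusted p = 0.998), with the *Fezf2+ve* level higher in 3 of 5 animals (two-sided exact permutation p over the pairs = 0.75). Its sign turned without the block (-0.05), without animal 2 (-0.67) and without animal 5 (-0.26). *Ntrk3* spans chromosome 7, 78179986 to 78581034, on the minus strand.

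The neurotrophin genes *Bdnf*, *Ntf3* and *Ntf5* had 0 reads in every library. Their receptors' partners were read sparsely, with 6 of 9 tested (median log2 fold change -0.40) and *Sorcs3*, a sortilin-family receptor, most abundant at 77 reads. One of the 6, *Ngfr*, had 0 reads in *Fezf2+ve* libraries and passed the filter through *Fezf2-ve* libraries only. The median carries that selection, and was 0.22 without the filter and -0.32 with the stricter one of 10 CPM in 5 libraries.

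*Erbb4*, a neuregulin receptor, had the most reads of the 9 genes, 1115 in all, and was the only one with at least 3 reads in all 10 libraries. Its reads were 8, 11, 127, 598 and 13 in *Fezf2+ve* libraries 1 to 5 and 7, 27, 17, 7 and 300 in *Fezf2-ve* libraries 1 to 5. *Fezf2+ve* libraries 3 and 4 and *Fezf2-ve* library 5 were high, and the other libraries ran from 33.1 to 303 CPM, with *Fezf2-ve* library 2 highest among them. Its mean was 1051 ± 1675 CPM (SD, n = 5) in *Fezf2+ve* and 371 ± 573 CPM (SD, n = 5) in *Fezf2-ve* cells, and without the highest library of each type 327 and 120 CPM. The medians were 102 and 101 CPM. The log2 fold change was 0.91 with a standard error of 1.92 (edgeR, adjusted p = 0.998), with the *Fezf2+ve* level higher in 3 of 5 animals (two-sided exact permutation p over the pairs = 0.688). Without animal 3 it was -0.32 and without animal 4 it was -0.51. The interneuron genes named above were at 0 or near it, apart from *Adarb2*, which had 359 reads in *Fezf2+ve* library 5 and 1144 in *Fezf2-ve* library 5. *Erbb4* spans chromosome 1, 68031884 to 69108576, on the minus strand, and at 1077 kb is the longest gene of the 9.

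The other ErbB receptors were at or under the floor. *Erbb2* had 1 read in *Fezf2+ve* library 2 and 1 read in *Fezf2-ve* library 3. *Erbb3*, which binds neuregulins but signals through a partner, had 0 reads in *Fezf2+ve* libraries, 1 read in *Fezf2-ve* library 2 and 2 reads in *Fezf2-ve* library 3. A difference was not detectable at this depth for either, and no fold change is given. *Erbb3* passed the filter through those 2 *Fezf2-ve* libraries (edgeR, adjusted p = 0.998). The span of *Erbb2* (chromosome 11, 98412484 to 98437716, plus strand) overlaps *Mien1*, which had 126 reads, and since it is not stated whether reads were counted by strand, reads of overlapping genes cannot be told apart.

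**Figure D2:**
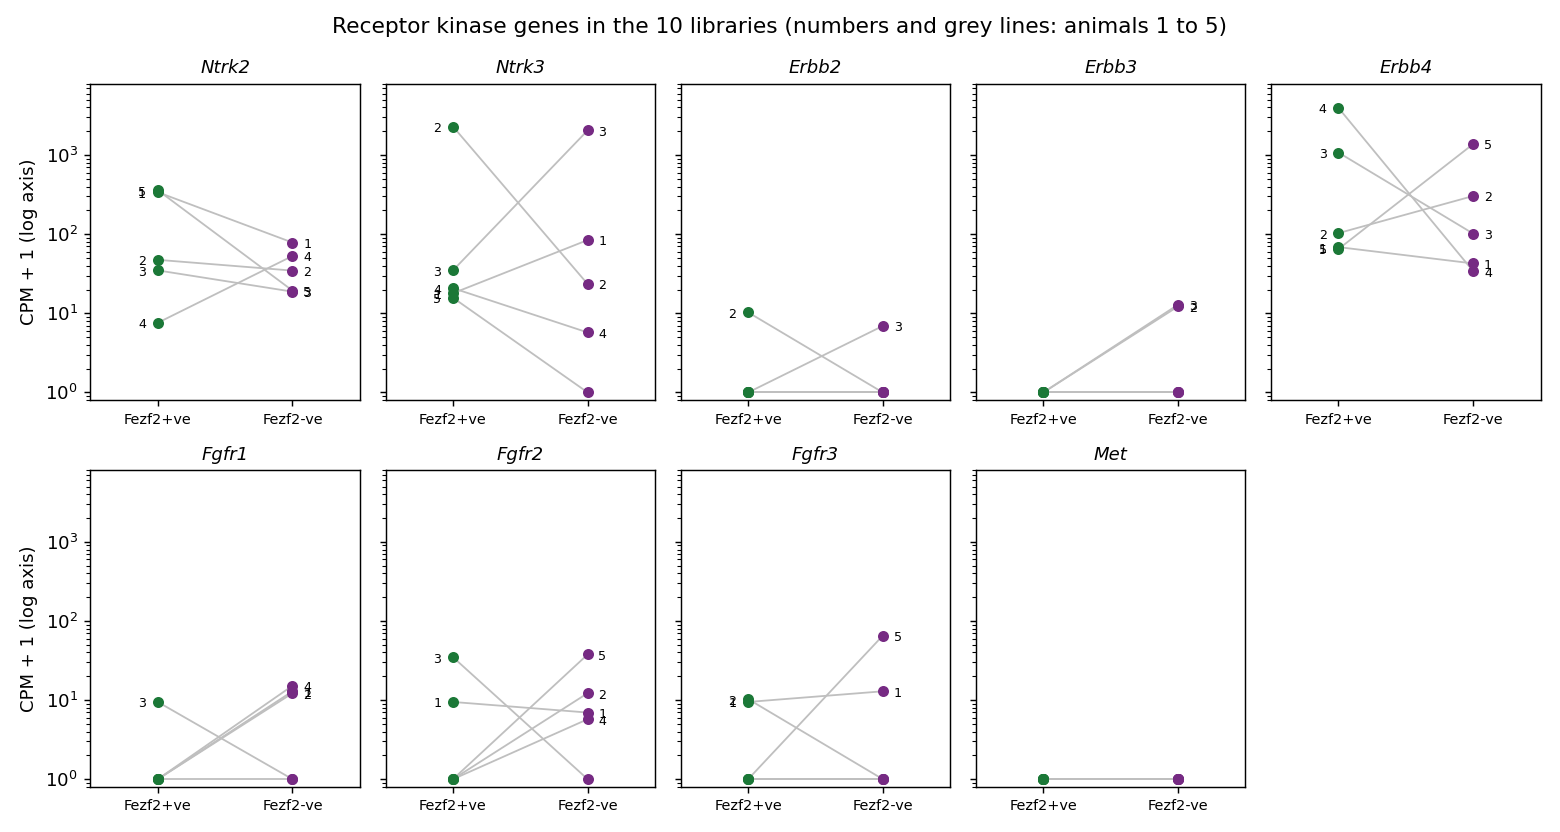
Level of each of the 9 receptor genes in CPM + 1 on a log axis, 1 point per library, numbered by animal, with grey lines joining the libraries of an animal. *Ntrk3* has 1 high library in each type, *Erbb4* spans 33.1 to 3945 CPM, and *Met* is at 0 in every library.

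*Fgfr1*, *Fgfr2* and *Fgfr3*, the FGF receptors, were read in few libraries. *Fgfr1* had 0, 0, 1, 0 and 0 reads in *Fezf2+ve* libraries 1 to 5 and 2, 1, 0, 3 and 0 in *Fezf2-ve* libraries 1 to 5. *Fgfr2* had 1, 0, 4, 0 and 0 reads in *Fezf2+ve* libraries 1 to 5 and 1, 1, 0, 1 and 8 in *Fezf2-ve* libraries 1 to 5. *Fgfr3* had 1, 1, 0, 0 and 0 reads in *Fezf2+ve* libraries 1 to 5 and 2, 0, 0, 0 and 14 in *Fezf2-ve* libraries 1 to 5. For all 3 genes the types overlapped at 0, and 1 library, *Fezf2-ve* library 5, held 8 of the 16 *Fgfr2* and 14 of the 18 *Fgfr3* reads. Summed over libraries and scaled to gene reads, *Fgfr1* was read 4.90 times as often in *Fezf2-ve* as in *Fezf2+ve* cells (95% exact counting interval 0.595 to 226, from 1 and 6 reads), *Fgfr2* 1.798 times (0.576 to 6.60, from 5 and 11 reads) and *Fgfr3* 6.54 times (1.54 to 58.6, from 2 and 16 reads). The same ratio was 0.226 for *Ntrk2* (0.150 to 0.333), 0.387 for *Erbb4* (0.340 to 0.439) and 1.15 for *Ntrk3* (0.974 to 1.35). These intervals leave out the spread between animals. *Fgfr1* and *Fgfr3* reached 10 CPM in *Fezf2-ve* libraries only, so they passed the filter through the type in which they were higher, and their fold changes carry that selection. With the spread between animals, the log2 fold changes of *Fezf2+ve* over *Fezf2-ve* cells were -1.63 with a standard error of 2.21 for *Fgfr1*, -0.89 with 1.98 for *Fgfr2* and -1.25 with 2.24 for *Fgfr3* (edgeR, adjusted p = 0.998 for each). The level was higher in *Fezf2-ve* cells in 3, 3 and 2 of 5 animals (two-sided exact permutation p over the pairs = 0.25, 0.562 and 0.75). DESeq2 with the block gave -0.13 for *Fgfr3*. The fold change of *Fgfr2* was 0.23 without animal 5. Without animal 5 *Fgfr3* fell under the filter, and without *Fezf2-ve* library 5 its mean was 3.55 CPM in *Fezf2+ve* and 2.98 CPM in *Fezf2-ve* cells.

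*Met*, the receptor of hepatocyte growth factor, had 0 of 1553687 gene reads, which allows a level of up to 1.93 CPM over the 10 libraries together. Its ligand gene *Hgf* had 2 reads, both in *Fezf2-ve* library 2, and none of the 8 genes of the ligand and its partners was tested. *Plxnb1*, the most abundant of them, had 5 reads.

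Of the 7 tested receptors, 0 were called at an adjusted p of at most 0.1 in edgeR with the block, as were 0 of 7409 tested genes (0%), and 0 of 7 had an unadjusted p under 0.05, beside 288 of 7409 (3.89%). DESeq2 with the block called 98 genes (1.32%) and edgeR without the block called 279 (3.77%), and each called 0 of the receptors. DESeq2 gave an adjusted p to 1664 genes, among them *Ntrk2*, *Ntrk3* and *Erbb4* (0.702, 0.751 and 0.793). In edgeR with the block every standard error was at least 1.30 on the log2 scale, and the smallest was that of *Ntrk2*, which was 1.18 in DESeq2 and 1.16 in edgeR without the block. These values do not show that the receptors are alike in both types. The common coefficient of variation between libraries was 1.19 in edgeR.

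**Figure D3:**
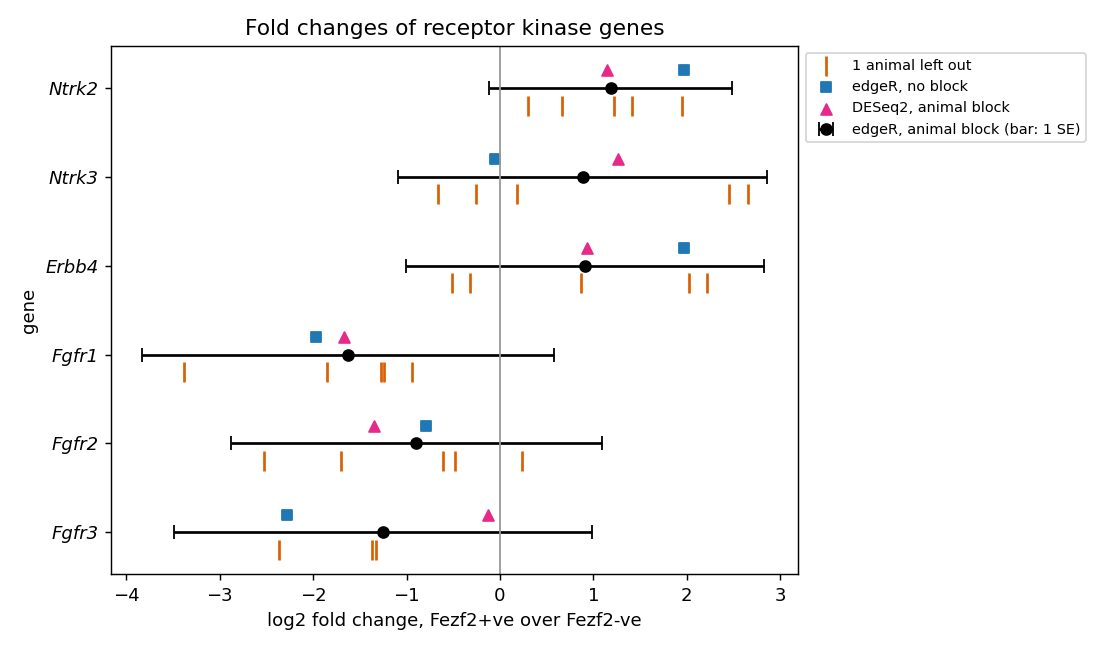
Log2 fold change of *Fezf2+ve* over *Fezf2-ve* cells for the 6 receptor genes given a fold change, with bars of 1 standard error, and the same value with other fits and with 1 animal left out. The bars of all 6 genes include 0, and the values of *Ntrk3*, *Erbb4* and *Fgfr2* lie on both sides of 0 when animals are left out.

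Between receptors, levels were compared per kb of gene span. The libraries were primed at the poly(A) tail and are biased to the 3′ end, so reads need not scale with length, and the order without length is given below. Across 7098 tested genes, which are not independent replicates, mean CPM had a Spearman correlation of 0.27 with span and 0.22 with summed exons. Over the 10 libraries the mean CPM per kb was 1.13 ± 2.264 (SD, n = 10) for *Ntrk3*, 0.660 ± 1.15 for *Erbb4*, 0.612 ± 1.29 for *Fgfr3* and 0.300 ± 0.408 for *Ntrk2*. It was between 0.0603 and 0.104 for *Erbb3*, *Fgfr2*, *Fgfr1* and *Erbb2*, in that order from the highest. Each SD was larger than its mean, so no neighbours in this order differed beyond their spread. By the median of the 10 libraries the order was another, with *Ntrk2* first (0.123 CPM per kb), then *Erbb4* (0.0942), *Ntrk3* (0.0526) and *Fgfr2* (0.0512), and the median was 0 for the other 5 genes, *Fgfr3* included. In *Fezf2+ve* cells the order from the highest was *Ntrk3* (1.19 ± 2.54), *Erbb4* (0.976 ± 1.56), *Ntrk2* (0.479 ± 0.537) and *Fgfr3* (0.231 ± 0.317; SD, n = 5). In *Fezf2-ve* cells it was *Ntrk3* (1.08 ± 2.258), *Fgfr3* (0.993 ± 1.82), *Erbb4* (0.345 ± 0.532) and *Erbb3* (0.209 ± 0.286; SD, n = 5). Here too neighbours differed by less than the larger of their SDs. Per kb of summed exons *Erbb4* came first (57.6 ± 99.8), followed by *Ntrk3* (15.1 ± 30.1) and *Ntrk2* (5.10 ± 6.92), so the order of the leading genes depended on the length used. In CPM without length it was *Erbb4* (711 ± 1233), *Ntrk3* (454 ± 908), *Ntrk2* (98.4 ± 134), *Fgfr2* (10.1 ± 13.9) and *Fgfr3* (9.40 ± 19.9; SD, n = 10). Where within a gene the reads fell was not analysed here.

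Reads of a gene were often concentrated in 1 library. For *Ntrk2*, *Ntrk3* and *Erbb4* the share held by 1 library was below the median of tested genes with 100 or more reads. The library with the most reads held 46.5% of the reads of *Ntrk2*, 55.6% of those of *Ntrk3* and 53.6% of those of *Erbb4*. Among the 1418 tested genes with 100 or more reads the median of this share was 76.7% (quartiles 51.9 and 93.5%). The libraries on top differed between the receptors, being *Fezf2+ve* library 5 for *Ntrk2*, *Fezf2-ve* library 3 for *Ntrk3* and *Fezf2+ve* library 4 for *Erbb4*.

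**Figure D4:**
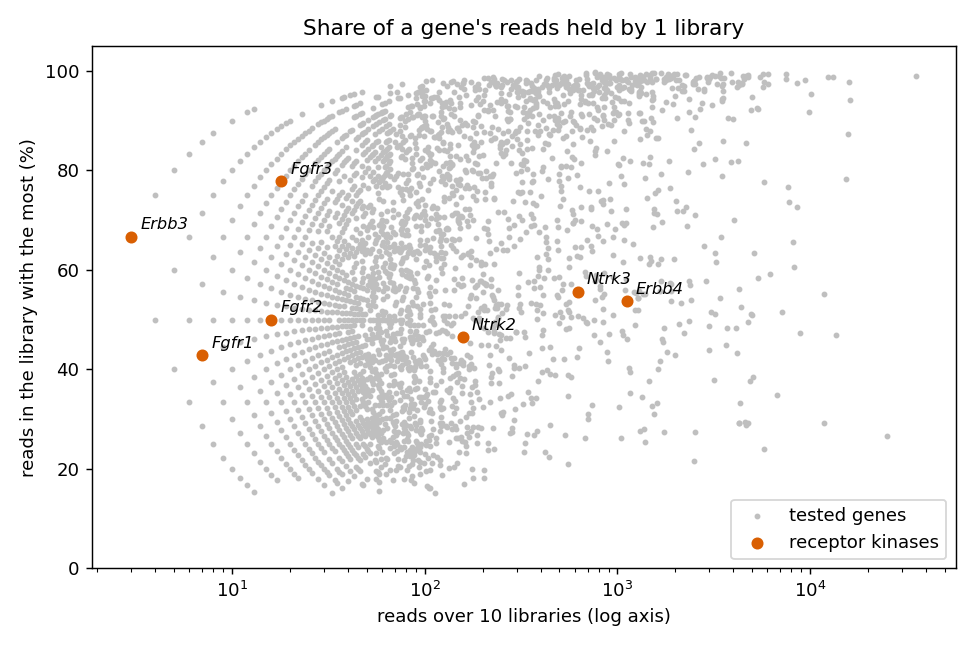
Share of a gene's reads held by the library with the most, in percent, against its reads over 10 libraries on a log axis, for the tested genes in grey and the 7 tested receptors in orange. *Ntrk2*, *Ntrk3* and *Erbb4* lie between 46.5 and 55.6%.

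The genes closest in pattern were taken by Spearman correlation of log2(CPM + 1) over the 10 libraries, as a description. For *Ntrk2* they were *Xpot* (0.92), *Ybx1* (0.90) and *Ywhab* (0.89). For *Ntrk3* they were *Tbc1d9b* (0.99), *Fnbp4* (0.93) and *Iqgap1* (0.93). For *Erbb4* they were *Ank3* (0.93), *Klra15* (0.93) and *Klra22* (0.93), of which the *Klra* genes are close copies with 27 reads each.

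The pathway around the receptors was described by 184 genes in 13 lists, of which 146 had a read and 103 were tested. In edgeR with the block 0 of 103 were called and 3 had an unadjusted p under 0.05 (2.91%, beside 3.89% of all tested genes). All 3 had a fold change below 0, and 2 of them were PI3K-AKT genes. The PI3K-AKT list holds genes that passed the filter through *Fezf2-ve* libraries only. DESeq2 called 2 (1.94%, beside 1.32%), and edgeR without the block called 7 (6.80%, beside 3.77%). The genes that DESeq2 called were *Nrg1* and *Csf1r*.

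*Nrg1* encodes neuregulin 1, a ligand of ErbB3 and ErbB4. Its reads were 4, 8, 578, 750 and 1 in *Fezf2+ve* libraries 1 to 5 and 14, 1, 3, 1 and 0 in *Fezf2-ve* libraries 1 to 5. *Fezf2+ve* libraries 3 and 4 held nearly all reads, and the other libraries of the types overlapped. *Erbb4* was also high in these libraries, but in *Fezf2-ve* library 5, where *Erbb4* had 300 reads, *Nrg1* had 0. The log2 fold change was 5.13 with a standard error of 2.47, with the level higher in *Fezf2+ve* cells in 4 of 5 animals (adjusted p = 0.998 in edgeR with the block, 0.0887 in DESeq2 with the block and 0.0931 in edgeR without it). The fold change was 2.90 without animal 3, 2.83 without animal 4, up to 6.90 without another animal and 6.91 without the block. *Nrg2*, another neuregulin, had 5, 6, 21, 3 and 8 reads in *Fezf2+ve* libraries 1 to 5 and 4, 2, 3, 0 and 8 in *Fezf2-ve* libraries 1 to 5. Its level was higher in *Fezf2+ve* cells in 5 of 5 animals, but the reads of the types differed by at most 1 in animals 1 and 5, and both libraries of animal 4 were at or under the floor. A direction shared by 5 animals was found for 313 of the 7409 tested genes (4.22%). The log2 fold change of *Nrg2* was 1.75 with a standard error of 1.17 (edgeR, adjusted p = 0.998). Of the 11 ErbB ligand genes 5 were tested, 2 with a fold change above 0 and 3 below, and their median was -0.04, beside -0.16 over all tested genes. One of those below, *Btc*, had 0 reads in *Fezf2+ve* libraries and passed the filter through *Fezf2-ve* libraries only, so its direction carries that selection. The ErbB ligand median was 0.10 without the filter and 0.84 with the stricter one of 10 CPM in 5 libraries. The median of the 3 tested ErbB partners was -2.265, which is the value of *Erbb2ip* itself, and it turned to 0.62 without animal 5. *Erbb2ip*, the most abundant gene of the ErbB partners, had 1282 of its 1324 reads in *Fezf2-ve* library 5.

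Secreted FGF genes were nearly absent, with 13 of 18 at 0 reads and *Fgf1* most abundant at 16. The FGF homologous factors, which stay in the cell and act on sodium channels instead of FGF receptors, were all read, and their median log2 fold change was -0.01. *Fgf14* had 10, 24, 15, 28 and 23 reads in *Fezf2+ve* libraries 1 to 5 and 17, 221, 22, 3616 and 28 in *Fezf2-ve* libraries 1 to 5. The level was higher in *Fezf2-ve* cells in 5 of 5 animals (a direction shared by 5 animals, as for 4.22% of the tested genes), by small amounts in all but animals 2 and 4, and the log2 fold change was -1.73 with a standard error of 1.49 (edgeR, adjusted p = 0.998). It was -1.10 without animal 2, -0.87 without animal 4 and -5.21 without the block (edgeR, adjusted p = 0.103). Of the 14 FGF co-receptor genes 6 were tested with a median of 0.41, and *Gpc5*, a glypican, was most abundant (log2 fold change 0.88, standard error 0.99).

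Downstream of the receptors, 16 of 24 adaptor genes were tested with a median log2 fold change of -0.83, 14 of 18 RAS-MAPK genes with -0.68, 14 of 20 PI3K-AKT genes with 0.53 and 15 of 20 negative regulators with -0.23. The adaptor genes *Ptpn11* and *Sh2b3* had 0 reads in *Fezf2+ve* libraries and passed the filter through *Fezf2-ve* libraries only. The adaptor median carries that selection, and was -0.23 without the filter and -0.11 with the stricter one of 10 CPM in 5 libraries. The PI3K-AKT genes *Pik3ca* and *Pik3cd* likewise had 0 reads in *Fezf2+ve* libraries. The PI3K-AKT median carries the same selection, and was 0.28 without the filter and 0.56 with the stricter one. The direction of the adaptor and PI3K-AKT medians and of that of the negative regulators turned when single animals were left out. The most abundant genes of 3 of these lists came from 1 library. *Sos1*, a RAS activator, had 4108 of 4204 reads in *Fezf2+ve* library 4, *Pik3r3* had 900 of 914 in *Fezf2+ve* library 5, and *Spry4*, a feedback inhibitor, had 1291 of 1317 in *Fezf2-ve* library 1. *Nf1*, which switches RAS off, had 976, 840 and 1205 reads in *Fezf2-ve* libraries 1, 3 and 4 and at most 81 in any other (log2 fold change -3.35, standard error 1.91, edgeR adjusted p = 0.998). Its fold change ran from -4.74 without animal 5 to -2.17 without animal 4 and was -4.30 without the block.

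Among 35 other receptor tyrosine kinases, *Csf1r*, the CSF-1 receptor of microglia, had 0, 2, 0, 0 and 3 reads in *Fezf2+ve* libraries 1 to 5 and 51, 45, 119, 28 and 534 in *Fezf2-ve* libraries 1 to 5. The types did not overlap, and the log2 fold change was -6.96 with a standard error of 1.54 (adjusted p = 0.993 in edgeR with the block and 8.78e-05 in DESeq2). *Csf1r* is also one of the microglial marker genes, whose sum was higher in every *Fezf2-ve* library than in any *Fezf2+ve* library. *Mertk*, the most abundant of the list, had 2008 and 5764 reads in *Fezf2-ve* libraries 4 and 5 and at most 10 elsewhere. Of the 20 tested genes of this list, 11 had a fold change above 0 and 9 below (median 0.22). For *Ntrk2*, *Ntrk3*, *Erbb4*, *Fgfr1*, *Fgfr2* and *Fgfr3* the libraries of the types overlapped. The share of all tested genes without overlap is not given here, so the overlap is not read as a trait of the receptors.

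**Figure D5:**
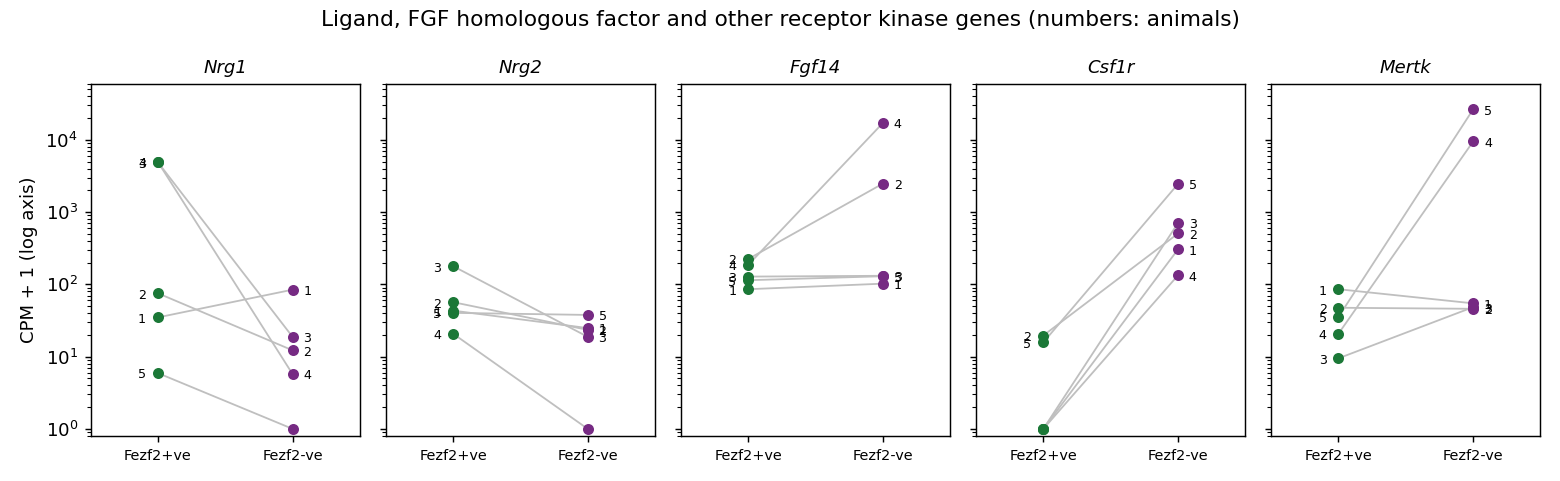
Level of a pair of neuregulin genes, an FGF homologous factor and 2 other receptor kinases in CPM + 1 on a log axis, 1 point per library, numbered by animal. *Csf1r* separates the types with 0 to 3 reads against 28 to 534, and *Nrg1*, *Fgf14* and *Mertk* are each high in 2 libraries.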

How the data were processed

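Read counts of 10 libraries, 5 of each type, were analysed. After demultiplexing and trimming, the authors aligned reads to mm10 (TopHat2 2.1.1), counted them on RefFlat genes with bedtools 2.26.0, per the labels and the study's methods, and deposited the counts without normalization. A read is counted on each gene it overlaps. The authors' table of their own DESeq2 comparison (means, fold changes, p-values) was not used. The deposited ERCC counts were used only for the table of libraries.

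TMM normalization and the quasi-likelihood test were run in edgeR 4.0.16 (R 4.3.3), with animals as blocks and p-values adjusted by Benjamini-Hochberg over all 7409 tested genes, threshold 0.1. Standard errors were calculated back from the F statistic. Levels are CPM of gene reads, with a pseudocount of 1 on the log2 scale. Paired levels were compared by exact permutation over 5 animals. Python 3.11.15, numpy 2.4.6, pandas 2.3.3 and scipy 1.17.1 were also used. Depth was 89138 to 217738 gene reads per library.

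Cells of both types came from the same animal, per the study's methods, which pairs the libraries. The replicate number in the sample titles was taken as the animal. Deviations from the type means correlated by 0.0283 on average within animals (-0.0297 to 0.0966) and by -0.00704 between animals. The alternatives were no block, DESeq2 1.42.0, size factors of DESeq2, no filter, library size alone, 10 CPM in 5 libraries, a threshold of 0.05, a pseudocount of 10 CPM, TMM-scaled totals, exon lengths and leaving out each animal. The legacy quasi-likelihood method was added after the data were seen. Gene spans are from RefSeq and strands, exons and transcripts from GENCODE vM21, both on GRCm38.

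The receptors and lists were chosen with earlier results of these data known. Named are the 9 receptors; of each pathway list the most abundant gene, genes called in edgeR or DESeq2 with the block, and up to 3 genes per direction with the smallest p among those moving 1 way in 5 of 5 animals; for the 3 most read receptors the 3 closest genes; and of each marker list the most abundant gene and those at 0. *Slc17a7*, *Fezf2*, *Neurod6*, *Rorb*, *Hgf*, *Btc*, *Ptpn11* and *Sh2b3* were named after their values were seen, as was *Mien1* for its overlap. The same holds for *Etv1*, *Deptor*, *Bcl11b*, *Trem2*, *Tyrobp*, *Aif1*, *Ngfr*, *Pik3ca* and *Pik3cd*. A few genes that this rule takes are not reported.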

Additional observations from a re-analysis of the deposited data

Results flagged for a closer look

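In 4 of 34 groups of 5 libraries examined, 1 library lay far from the other 4 on the log2(CPM + 1) scale. Chance sets about 1 in 20 groups apart where values are continuous, a rate that does not apply to a single read beside zeros, as in 3 of the 4. *Ntrk3* stood at 11.16 in *Fezf2+ve* library 2, from 247 reads. *Erbb2* stood at 3.36 in *Fezf2+ve* library 2 and at 2.79 in *Fezf2-ve* library 3, each from 1 read where the other libraries of the type had 0. *Fgfr1* stood at 3.24 in *Fezf2+ve* library 3, likewise from 1 read.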

How the results depend on the processing

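In edgeR, 0 receptors were called with or without the block, in DESeq2 and under each other alternative run. Over all tested genes, 0 were called with the block and 279 without this replicate block, 98 by DESeq2 and 638 by the legacy method without the block; for the tested pathway genes these counts were 0, 7, 2 and 16. The other alternatives called 0, including each animal left out (0 to 0). The block changed no call of a receptor.

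Without the block, by the current and by the legacy method, log2 fold changes turned to -0.054 for *Ntrk3*, 6.85 for *Sos1* and -0.045 for *Slc1a2*. With 1 animal left out, the fold change ran from -0.67 to 2.65 for *Ntrk3*, -0.51 to 2.22 for *Erbb4*, -2.52 to 0.23 for *Fgfr2*, -0.97 to 0.68 for *Sos1*, -0.28 to 1.70 for *Pik3r3*, -2.22 to 0.40 for *Spry4*, -2.01 to 0.60 for *Camk2a* and -0.19 to 1.97 for *Vcan*. That of *Ntrk2* (0.30 to 1.95) kept its sign. *Fgfr1* ran from -3.38 to -0.95, but it passed the filter through *Fezf2-ve* libraries only, so its sign is no measure of stability. *Fgfr3* (-2.37 to -1.33) was fitted in 3 of 5 cases only and fell under the filter without animal 1 or 5. It was -0.13 in DESeq2. Without the block *Ntrk2* and *Erbb4* were each at 1.97. Among the genes called there were *Erbb2ip*, *Pik3r3* and *Mertk*, at -6.34, 6.55 and -7.87 (edgeR without the block, adjusted p = 0.0945, 0.0931 and 0.0931). With the block they were at -2.265, 1.03 and -3.46.

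Of the 11 list medians, that of the RAS-MAPK genes alone kept its sign under every alternative run. Several lists held genes read in 1 type only, which passed the filter through that type. List medians moved with the filter: to -0.28 without it and -0.62 with the stricter one for ErbB partners, -0.23 and -0.11 for adaptors, and 0.15 with the stricter one for negative regulators. Smaller than the spread between animals were the moves to 0.22 for neurotrophin co-receptors and 0.29 for FGF ligands without the filter, and to 0.10 without it and 0.84 with the stricter one for ErbB ligands. Without the block they were -0.15 (legacy -0.17) for PI3K-AKT genes and -0.64 (legacy -0.58) for negative regulators. With 1 animal left out they ran from -2.55 to 0.62 for ErbB partners, -2.62 to 1.37 for FGF ligands, -0.97 to 0.34 for adaptors, -0.46 to 0.57 for PI3K-AKT genes, -0.42 to 0.14 for negative regulators, -0.79 to 0.01 for neurotrophin co-receptors, -0.97 to 1.13 for ErbB ligands, -0.57 to 0.41 for FGF homologous factors, -0.01 to 0.66 for FGF co-receptors and -0.54 to 0.46 for the other receptor kinases. The median of the 2 tested FGF ligands was -0.51, or 1.29 with *Fgf10*, at or under the floor in both types, left out.

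Per kb of exons instead of span, the rank was 1 for *Erbb4*, 2 for *Ntrk3*, 3 for *Ntrk2*, 4 for *Fgfr3*, 5 for *Fgfr2*, 6 for *Fgfr1* and 7 for *Erbb3*. The cause of these changes was not tested. At this depth no difference was detectable for *Erbb2* and *Erbb3*, with at most 3 reads in a type, nor for *Met*, with 0.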
